A study of Mus musculus with 6 samples.

Results

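Retinoic acid (RA), the active derivative of vitamin A, was given to wild-type mouse embryonic stem cells, and small RNA sequencing gave the count of each mature microRNA (miRNA) without it and with it. The comparison covers the 379 of 1899 listed mature miRNA entries with a mean of at least 50 uniquely matched reads over these 2 libraries. All cells were of the 129/Ola strain, sampled in bulk, and their maintenance medium held serum and leukemia inhibitory factor on gelatin. Untreated WT denotes wild-type cells with no agent, and WT with RA denotes wild-type cells given RA at 1 µM, which the labels write as 1 µm and which is read here as micromolar. The length of the RA treatment is not given in the sources used here, nor whether leukemia inhibitory factor stayed in the medium with it. The series also holds 4 libraries of cells with the transcription factor gene Wt1 deleted (Wt1 KO): untreated, with RA, and after 12 h or 24 h of doxycycline (dox), which induces Wt1. Each of the 6 groups is 1 library, and how many cultures or clones stand behind a library is not stated.

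A miRNA is a short RNA that guides the Argonaute proteins to matching sites in messenger RNAs and lowers their output. The bases 2 to 8 from its 5′ end, the seed, do most of the pairing, so miRNAs with the same seed share many targets. Mouse embryonic stem cells are known for the miR-290 cluster, which speeds passage into S phase. RA binds nuclear receptors that switch on genes of the HOX clusters, and several miRNA genes lie inside those clusters. Differentiating cells are known to accumulate let-7, which the stem cell protein LIN28 holds back.

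Mature sequences that carry the main contrasts are shown first, from RefSeq on the mouse build GRCm38.p6, 5′ to 3′, with the seed in capitals. RefSeq held the same sequence as the deposited table for 322 of the 379 members, another sequence for 2 and no matching entry for 55. The first 3 lines share a seed across both stem cell clusters. The next pairs show related miRNAs from different loci whose sequences differ in 1 base while their RA responses lay far apart or both stood high, and the last lines are an abundant miRNA of each direction.
miR-295-3p: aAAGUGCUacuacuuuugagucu
miR-291a-3p: aAAGUGCUuccacuuugugugc
miR-302d-3p: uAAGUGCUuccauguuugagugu
miR-17-5p: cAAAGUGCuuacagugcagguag
miR-106a-5p: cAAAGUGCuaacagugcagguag
miR-27a-3p: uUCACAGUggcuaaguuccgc
miR-27b-3p: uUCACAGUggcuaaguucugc
miR-10a-5p: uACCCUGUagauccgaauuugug
miR-10b-5p: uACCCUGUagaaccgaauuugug
miR-99a-5p: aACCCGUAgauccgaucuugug
miR-100-5p: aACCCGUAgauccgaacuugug
miR-181a-5p: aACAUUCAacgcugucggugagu
miR-92a-3p: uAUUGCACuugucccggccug

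Uniquely matched reads totalled 1063945 for untreated WT and 6106104 for WT with RA, a 5.74-fold difference in depth, and the other 4 libraries lay between 83626 (Wt1 KO with RA) and 3629658. The members held 99.81% and 99.86% of the reads of the 2 libraries, and their median count was 121 and 714. Levels are given as normalised CPM, reads scaled to a common library size by the trimmed mean of M values. A count of 0 allows up to 3 counts, which equal 2.75 normalised CPM in untreated WT and 0.448 in WT with RA. With 1 library on each side there is no replicate check and no test. A member is called higher from a log2 ratio of 1 and lower from a log2 ratio of -1, provided that the 95% counting interval, given in brackets, leaves out 0. PCR copies carry no molecular identifiers here and are not independent molecules, so the interval holds for counting error alone. In bulk samples, fewer cells of a type and less RNA per cell cannot be told apart.

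Of the 379 members, 92 were higher with RA (24.3%) and 74 were lower (19.5%). The other 213 had ratios smaller than 1 in size. The median log2 ratio was 0.24 with quartiles of -0.65 and 0.98, and the ratios ran from -6.02 to 10.23. Large ratios were common in both directions: 36 members were higher by at least 2 on the log2 scale and 12 by at least 4, while 47 were lower by at least 2 and 14 by at least 4. In reads, the 92 higher members went from 2.616% of untreated WT to 22.58% of WT with RA, and the 74 lower members from 40.61% to 8.783%. These shares follow from how the 2 sets were called and describe their weight in the libraries. Other scalings moved the median of all members by -0.14 to 0.10, so ratios and medians nearer to 0 than that have no settled sign.

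The minimum of 50 reads weighs the deeper library more. It was passed through WT with RA alone by 121 members, which had under 50 reads untreated, and 50 of those were called higher and 6 lower. Just 5 passed through untreated WT alone. Among the 253 members with at least 50 reads in both libraries, 42 were higher and 63 lower. Just inside the minimum were miR-669k-5p, miR-6956-3p and miR-744-3p, with mean counts of 51, 52 and 52.5 and log2 ratios of -1.88, -0.30 and -0.56. Just outside were miR-301a-5p and miR-351-3p at a mean count of 49.5 and miR-669e-5p at 49, with log2 ratios of 0.63, 3.42 and -1.52.

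**Figure D1:**
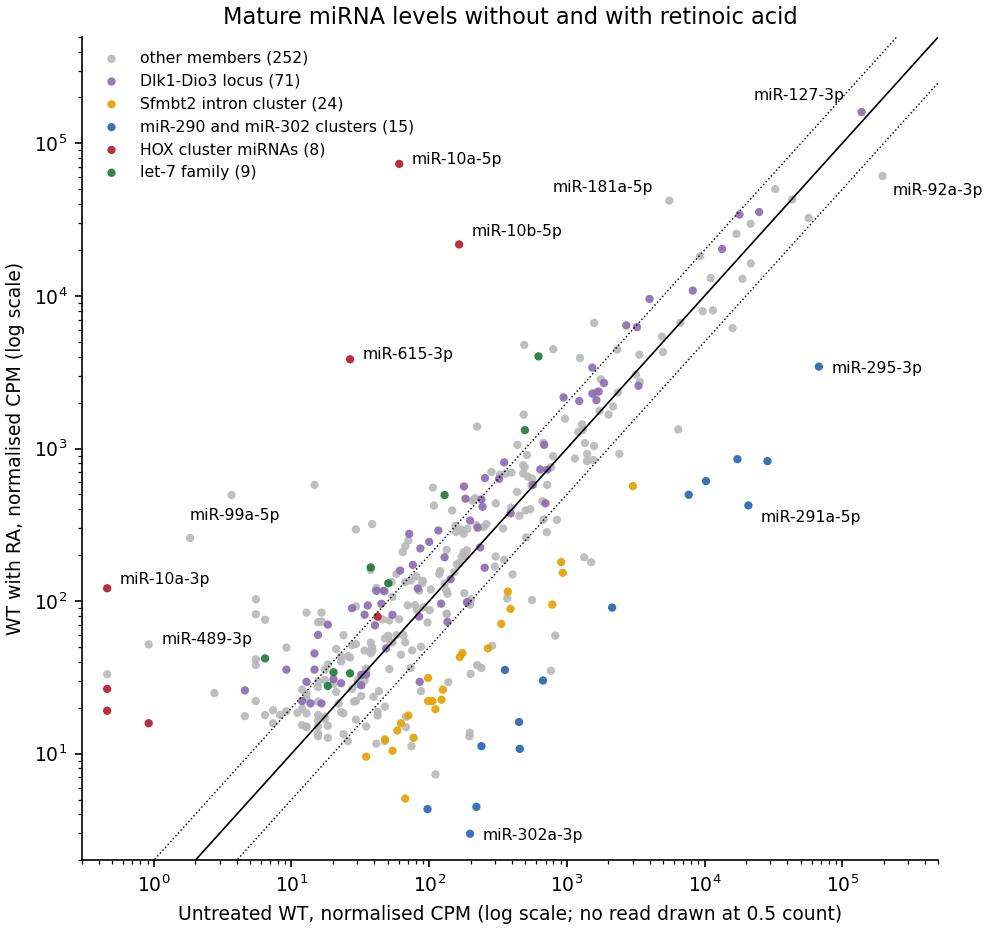
Normalised CPM of the 379 members in untreated WT (horizontal, log scale) and WT with RA (vertical, log scale), 1 point per miRNA, coloured by list; the solid line marks equal levels and the dotted lines a 2-fold difference. miR-10a-5p lies at 60.58 and 73360 CPM far above the line, and the miR-290 and miR-302 clusters lie below it as a group.

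The stem cell clusters were lower with RA in every member. The miR-290 cluster, on chromosome 7 next to the protein-coding gene AU018091, had 12 members and all 12 were lower, with a median log2 ratio of -4.44 and a range from -5.62 to -3.33. Its reads made up 16% of untreated WT and 0.751% of WT with RA. The 3 members of the miR-302 cluster, known from the primed state of pluripotency, were also all lower, with a median of -5.40. Both lists serve as the markers of the labelled cell type, and both were present in untreated WT.

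miR-295-3p (chr7:3220815-3220837, plus strand) had 73740 reads untreated and 23070 in the far deeper library with RA. Its level was 67690 normalised CPM without RA and 3446 with it, a log2 ratio of -4.30 [-4.32 to -4.28]. In the 3 Wt1 KO libraries without RA it lay between 72620 and 129200 CPM, so WT with RA was the lowest of these 5 libraries by a wide margin. The arms of the cluster's hairpins differed in both directions. In miR-290a the 3p arm was lower by more (5p -4.47, 3p -5.60), as in miR-293 (-3.33 and -3.95). In miR-291a and miR-292a the 5p arm was lower by more. miR-291a-5p went from 20840 to 424.1 CPM (log2 ratio -5.62 [-5.68 to -5.56]), while miR-291a-3p went from 2134 to 90.67 CPM (-4.56 [-4.69 to -4.43]). miR-292a-5p, at 28680 and 827.1 CPM, had a ratio of -5.12 and its partner miR-292a-3p, at 17350 and 852.3 CPM, one of -4.35. As a result the main arm of the miR-292a hairpin, by reads, was the 5p arm untreated (62.3% of the hairpin's reads) and neither arm clearly with RA (49.2%).

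The lowest ratios of all members were those of miR-302a-3p and miR-291a-5p. miR-302a-3p had 216 reads untreated and 20 with RA, or 198.3 and 2.988 CPM, a log2 ratio of -6.02 [-6.79 to -5.39]. miR-302d-3p (chr3:127545665-127545687, plus strand, between Ank2 and Zgrf1) had 496 and 72 reads and a ratio of -5.40 [-5.78 to -5.04]. The level of the miR-302 list varied among the libraries without RA as well, from a summed 160.9 CPM in Wt1 KO to 791.2 CPM in untreated WT, against 18.67 CPM in WT with RA.

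By seed, the 5 members of both clusters with the seed AAGUGCU in RefSeq (miR-291a-3p, miR-294-3p, miR-295-3p, miR-302b-3p and miR-302d-3p) summed to 80640 CPM untreated and 4164 CPM with RA, a log2 ratio of -4.28 [-4.30 to -4.26]. The 3 members with the seed CUCAAAC (miR-290a-5p, miR-292a-5p and miR-293-5p) summed to 29710 and 892.7 CPM, a ratio of -5.06. The seed AAAGUGC, which is AAGUGCU moved by 1 base, belongs to miR-17 and its relatives, and there the 6 members summed to 6247 and 5699 CPM, a ratio of -0.13 [-0.17 to -0.09]. Low ratios were thus seen for the stem cell clusters' seed and not for the sum of its shifted form.

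The miR-17 clusters, which promote proliferation, split by locus. The cluster on chromosome 14 (miR-17 to miR-92a-1) lies in an exon of the host transcript Mir17hg, and 1 of its 8 members was lower, with a median log2 ratio of -0.17. The related cluster on chromosome 5 (miR-106b, miR-93 and miR-25) had none of 6 called, with a median of 0.01. Of the 7 members placed in the cluster on the X chromosome (miR-106a to miR-363), 6 were lower, with a median of -3.06. miR-19b-3p and miR-92a-3p have hairpins on both chromosome 14 and the X chromosome, so their reads cannot be told apart by locus and they are counted in both groups.

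miR-106a-5p (chrX:52742541-52742563, minus strand, between Gpc3 and Ccdc160) had 214 reads untreated and 87 with RA, or 196.4 and 13 CPM. Its log2 ratio was -3.91 [-4.30 to -3.55]. miR-17-5p (chr14:115043684-115043706, plus strand) differs from it in 1 of 23 bases, as the printed pair shows, and went from 481.9 to 779.6 CPM, a ratio of 0.69 [0.56 to 0.83]. miR-20b-5p from the X chromosome and miR-20a-5p from chromosome 14 showed the same contrast, at -3.84 and 0.85. miR-18b-5p and miR-18a-5p lay at -1.83 and 0.71, and miR-363-3p, of the X chromosome alone, at -3.06 [-3.17 to -2.95]. The Wt1 KO libraries without RA held between 430.3 and 680.3 CPM of miR-106a-5p, above both wild-type libraries. These members were chosen for mention after their values were seen.

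miR-92a-3p was the most abundant miRNA of untreated WT and took 20.09% of its reads, against 6.708% with RA. Its level went from 196200 to 61180 CPM, a log2 ratio of -1.68 [-1.69 to -1.67], and the 3 Wt1 KO libraries without RA lay between 241100 and 440100 CPM. miR-92b-3p, from a separate gene with the same seed AUUGCAC, was lower too (15980 and 6151 CPM, ratio -1.38), while miR-25-3p of that seed stood at 6688 and 6665 CPM, a ratio of -0.01 [-0.04 to 0.03]. The 4 members with this seed summed to 220300 CPM untreated and 74180 with RA. A similar contrast was seen in the miR-23/27/24 clusters. miR-27a-3p of chromosome 8 had 369.0 CPM untreated and 104.1 with RA, a ratio of -1.83 [-2.005 to -1.645], and miR-23a-3p of the same cluster had a ratio of -1.43. miR-27b-3p of chromosome 13, which differs in 1 of 21 bases, had 11090 and 13110 CPM and a ratio of 0.24 [0.21 to 0.27]. Because miR-27b-3p supplied most of the reads, the summed level of the shared seed UCACAGU was 11460 CPM untreated and 13210 CPM with RA.

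**Figure D2:**
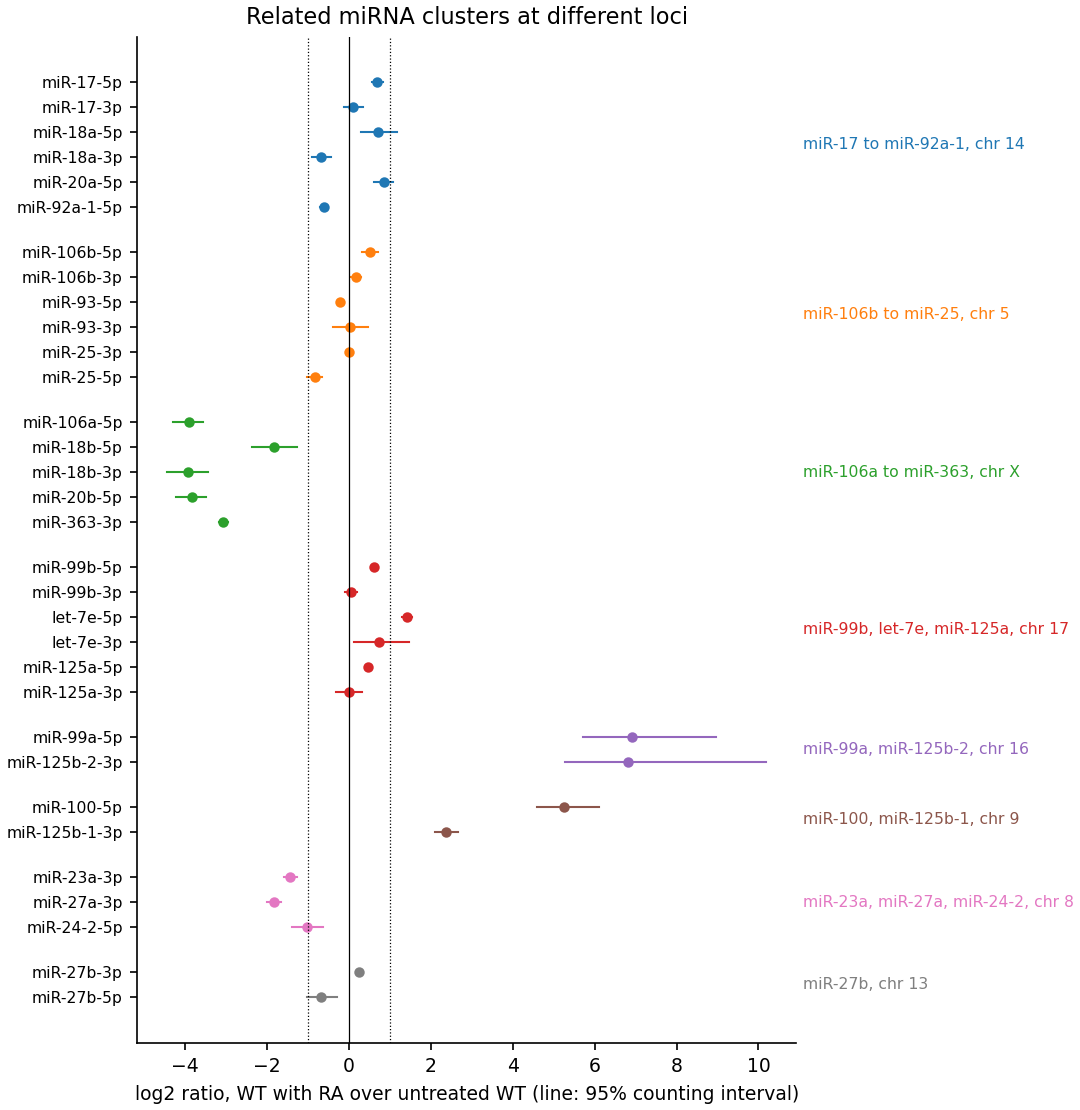
Log2 ratio of WT with RA over untreated WT for members of related clusters, 1 point per miRNA with its 95% counting interval, grouped by locus; miRNAs made from several of these loci are left out. The X chromosome cluster lies between -3.92 and -1.83 while its relatives on chromosomes 14 and 5 lie between -0.84 and 0.85, and the miR-99a and miR-100 loci lie above the miR-99b locus.

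The HOX cluster miRNAs had the highest ratios in the comparison. Of 8 members, 7 were higher and none was lower, and the list went from 0.0309% of the reads to 10.9%. Among those 7, just miR-10a-5p and miR-10b-5p had at least 50 reads untreated. The rest passed the minimum through WT with RA alone, where they were high, so the count of higher members rests largely on that. The median log2 ratio was 6.45, or 4.497 with the 3 members that had no read in untreated WT set at their bound. miR-196a-5p was the member not called, at 42.22 and 79.17 CPM, a ratio of 0.89 [0.47 to 1.37].

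miR-10a-5p lies at chr11:96317186-96317208 on the plus strand, outside other annotated genes of its strand and between Hoxb5 and Hoxb4. It is known to target messenger RNAs of HOX genes. It had 66 reads untreated and 491094 with RA. Its level was 60.58 CPM untreated, 68.03 to 82.60 CPM in the 3 Wt1 KO libraries without RA, and 73360 CPM in WT with RA, where it took 8.043% of all reads. The log2 ratio was 10.23 [9.89 to 10.61]. miR-10a-3p, the other arm, had no read in the 4 libraries without RA and 813 reads in WT with RA, at least 44.1-fold higher than untreated WT.

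miR-10b-5p (chr2:74726074-74726096, plus strand) lies in an intron of Hoxd3 and Hoxd4 transcripts. It had 165.2 CPM untreated and 21770 CPM with RA, a ratio of 7.04 [6.83 to 7.26], and between 90.71 and 229.9 CPM in the Wt1 KO libraries without RA. The 2 miR-10 5p miRNAs share the seed ACCCUGU and differ in 1 of 23 bases, and together they went from 225.8 to 95130 CPM. Order changed between them: untreated, miR-10b-5p had the higher level, and with RA miR-10a-5p did. miR-615-3p, encoded in a Hoxc5 intron, had 29 and 25748 reads, or 26.62 and 3846 CPM, a ratio of 7.15 [6.65 to 7.75]. Its 5p arm was at 0 in the 4 libraries without RA and had 178 reads in WT with RA, at least 9.66-fold higher. miR-10b-3p had no read untreated and 128 with RA, at least 6.94-fold higher, and miR-196b-5p had 1 and 106 reads, a ratio of 3.53 [1.60 to 9.43].

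The families of let-7, miR-99, miR-100, miR-125 and miR-181 are known to accumulate as cells differentiate, and none of their members was lower. In the let-7 family 6 of 9 members were higher, with a median log2 ratio of 1.41 and all 9 ratios positive. Of the higher ones, let-7i-5p and let-7b-5p had 41 and 7 reads untreated and passed the minimum through WT with RA alone. let-7c-5p led in reads, with 622.4 CPM untreated and 4019 CPM with RA, a ratio of 2.69 [2.58 to 2.80]. let-7a-5p went from 129.4 to 495.3 CPM, let-7i-5p from 37.63 to 166.4 CPM and let-7e-5p from 495.7 to 1319 CPM. let-7d-5p, let-7d-3p and let-7e-3p were not called, with ratios of 0.57, 0.32 and 0.73. The 7 members with the seed GAGGUAG summed to 1360 CPM untreated and 6200 CPM with RA, a ratio of 2.19 [2.11 to 2.26].

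In the families of miR-99, miR-100 and miR-125, the locus again set the members apart. The genes of miR-99a, let-7c-1 and miR-125b-2 lie on chromosome 16 and those of miR-100 and miR-125b-1 on chromosome 9, while miR-99b, let-7e and miR-125a lie together on chromosome 17. miR-99a-5p (chr16:77598940-77598961, in an intron of Mir99ahg) had 4 reads untreated and 3317 with RA, or 3.672 and 495.5 CPM, a ratio of 6.91 [5.72 to 8.95]. miR-100-5p, 1 base different, had 14.69 and 577.8 CPM and a ratio of 5.25 [4.597 to 6.106]. miR-125b-5p, made from both chromosome 9 and chromosome 16, went from 490.2 to 4781 CPM (3.29 [3.16 to 3.41]).

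On chromosome 17, miR-99b-5p had 32640 CPM untreated and 50190 CPM with RA, a ratio of 0.62 [0.61 to 0.64], and miR-125a-5p had 21630 and 29720 CPM, a ratio of 0.46 [0.44 to 0.48]. let-7e-5p, from that locus, was called higher at 1.41. Since miR-99b-5p held most reads of its seed ACCCGUA, the seed's sum moved from 32660 to 51260 CPM, a ratio of 0.65, despite the higher ratios of miR-99a-5p and miR-100-5p. Libraries without RA lay apart for some of these miRNAs. The called miR-125b-5p lay between 85.70 and 112.3 CPM in the 3 Wt1 KO libraries without RA, well under the 490.2 CPM of untreated WT, and miR-99b-5p, not called, lay there between 4166 and 11430 CPM. For miR-125b-2-3p the 4 libraries without RA held 1.767 to 3.543 CPM, from 2 to 9 reads.

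The miR-181 family, known from lymphocytes, had 4 of 6 members higher and a median of 1.77. Of those 4, miR-181a-1-3p, with 18 reads untreated, passed the minimum through WT with RA alone. miR-181a-5p, made on chromosomes 1 and 2, went from 5558 to 42200 CPM, a ratio of 2.92 [2.89 to 2.96], and took 4.626% of the reads with RA. In the Wt1 KO libraries without RA it lay between 364.3 and 827.1 CPM, so untreated WT already stood above them. miR-181b-5p went from 796.8 to 4476 CPM. miR-181c-5p and miR-181d-5p, of chromosome 8, stood at 2343 and 2327 CPM and at 1727 and 1767 CPM, with ratios of -0.01 [-0.07 to 0.05] and 0.03 [-0.04 to 0.10]. The other arm of the miR-181c hairpin, miR-181c-3p, was called higher, at 146.9 and 392.6 CPM (1.41 [1.19 to 1.66]).

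The cluster of miR-322 and miR-503 on the X chromosome, known to slow the cell cycle in differentiating muscle, had 5 of 7 members higher and all 7 ratios positive (median 1.81). Just miR-351-5p had at least 50 reads untreated. The other members passed the minimum through WT with RA alone, so the count and the signs rest largely on that. miR-322-5p (29.37 and 295.2 CPM, ratio 3.31 [2.83 to 3.88]) and miR-322-3p (38.55 and 319.5 CPM, ratio 3.03) had the highest ratios of the list, and miR-351-5p held the most reads of the cluster, with 1579 and 6658 CPM and a ratio of 2.08. miR-322-5p shares the seed AGCAGCA with the miR-15/16 family, which restrains the cell cycle. In that seed group miR-497a-5p was lower (200.1 and 33.31 CPM, ratio -2.59 [-2.86 to -2.31]), and miR-16-5p stood at 3174 and 3059 CPM, a ratio of -0.053 [-0.105 to -0.001]. It was the 1 seed group of 35 with members called in both directions. Its summed level was 4837 CPM untreated and 4569 CPM with RA.
miR-322-5p: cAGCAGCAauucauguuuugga
miR-497a-5p: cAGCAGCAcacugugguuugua

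Imprinted and other large clusters moved in different directions. The Dlk1-Dio3 locus on chromosome 12, expressed from the maternal chromosome, had 71 members, of which 27 were higher and 1 lower (miR-665-3p, ratio -1.53; up to 3 under other scalings). The share called higher, 27 of 71, compares with 24.3% of all members, and the median was 0.74 against 0.24. The locus held 24.1% of the reads untreated and 34.6% with RA. Its most abundant product, miR-127-3p (chr12:109592888-109592909, plus strand), was not called, at 138400 and 160600 CPM (0.21 [0.21 to 0.22]), and was the most abundant miRNA of WT with RA. miR-410-3p and miR-341-3p were the most abundant called members, at 3987 and 9558 CPM and at 2701 and 6417 CPM. Along the chromosome, 5 of 18 members from miR-770 to miR-136 were higher, and 18 of 46 from miR-379 to miR-3072.

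The intron of Sfmbt2, an imprinted gene, holds a repeated miRNA cluster of rodents, and its list was gathered by name and not by position. All 24 members of the list were lower, with a median of -2.25 and a range from -3.71 to -1.65. miR-467d-5p, the member with the most reads, went from 3018 to 566.6 CPM (ratio -2.41 [-2.48 to -2.34]), and the 3 Wt1 KO libraries without RA held 1139 to 1633 CPM. The joined entry of miR-669o-3p and miR-669a-3p, whose sequences are identical, went from 933.5 to 153.3 CPM. Sequences of this cluster are near copies of each other, so how reads were split among its members is uncertain. The X-linked cluster known from testis had 2 members, both lower, miR-470-5p at 74.35 and 11.20 CPM (-2.73 [-3.20 to -2.26]) and miR-871-3p at 137.7 and 29.43 CPM (-2.23).

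**Figure D3:**
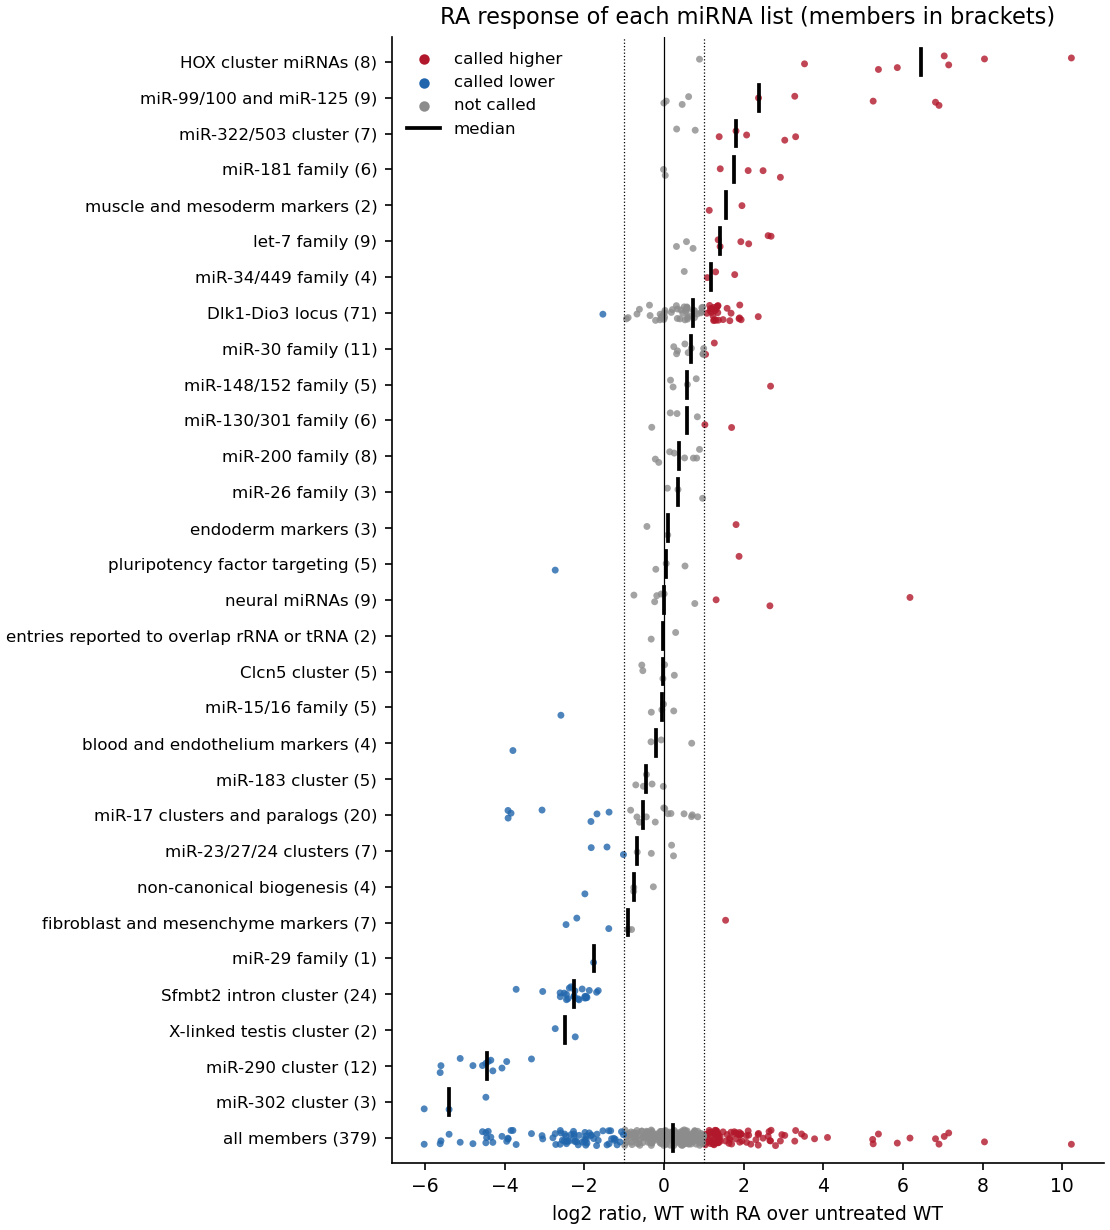
Log2 ratio of WT with RA over untreated WT for the members of each list, 1 point per miRNA with red for called higher, blue for called lower and grey for not called; black bars are medians, dotted lines mark -1 and 1, and the number of members is in brackets. All 12 miR-290, 3 miR-302 and 24 Sfmbt2 members lie below -1, and 7 of the 8 HOX members lie above 1.

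Lists of other cell types were mixed, and their counts stand beside 24.3% higher and 19.5% lower of all members. For neurons, 3 of 9 members were higher and none lower, with a median of 0.005. All 3 had 14 reads or fewer untreated and passed the minimum through WT with RA alone. The summed level of the list was 818.4 CPM with RA, within the 633.4 to 1016 CPM of the libraries without RA. miR-218-5p, of motor neurons, had 12.85 and 84.10 CPM (2.66 [1.95 to 3.59]), its partner miR-218-1-3p a ratio of 1.31, and miR-219a-2-3p, known from oligodendrocytes, no read untreated and 222 with RA, at least 12.0-fold higher. miR-9-5p, of neural progenitors, lay at 171.7 and 294.4 CPM, a ratio of 0.78 that was not called. miR-124-3p, the defining neuronal miRNA, was below the minimum with 25 and 60 reads, and 8 of the 43 listed entries had no read in both libraries.

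For muscle and mesoderm, 2 of the 23 entries were members and both were higher, while the median of the list was -0.30 without a minimum. miR-133a-3p had 108.3 and 422.7 CPM (1.959 [1.699 to 2.243]) and 8.504 to 13.23 CPM in the Wt1 KO libraries without RA. miR-143-3p, of smooth muscle, had 206.5 and 455.6 CPM (1.14 [0.95 to 1.34], or 0.99 and not called as CPM without the stem cell clusters), and its level with RA lies inside the range of the libraries without RA (206.5 to 608.7 CPM). The defining muscle miRNAs miR-1a-3p and miR-206-3p had no read in both libraries, as had 14 of the 23 entries in all. Below the minimum, miR-145a-5p had 15 reads untreated and 49 with RA and miR-145a-3p 5 and 13, which is less than the 5.74-fold difference in depth. The other entries there with reads had 0 untreated and at most 9 with RA. The list's summed level was 889.8 CPM with RA against 333.2 to 641.4 CPM without.

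Of the fibroblast and mesenchyme list, 1 of 7 members was higher and 3 were lower (5 as CPM without the stem cell clusters), with a median of -0.91. The joined entry of miR-199a-3p and miR-199b-3p was the higher one, at 41.31 and 122.0 CPM. miR-21a-5p went from 2406 to 921.3 CPM (-1.38 [-1.45 to -1.32]), but the Wt1 KO libraries without RA held 304.7 to 485.0 CPM, less than WT with RA. miR-22-3p, the most abundant member, went from 57030 to 32460 CPM, a ratio of -0.81 that was not called. The list summed to 34700 CPM with RA and to between 16080 and 62050 CPM without, and miR-21b was its only entry with no read in both libraries. Below the minimum, miR-199a-5p had 2 reads untreated and 71 with RA, and miR-214-3p 1 and 85. miR-199b-5p and miR-214-5p had 0 and 18 each, and these entries were picked once their values had been seen. The list's other entries there with reads were miR-22-5p (13 and 53), miR-31-3p (5 and 30), miR-221-5p (15 and 28), miR-222-5p (5 and 6) and miR-21c (0 and 1). All stand beside the 5.74-fold difference in depth, which miR-22-5p, miR-221-5p and miR-222-5p did not reach and miR-31-3p barely passed before normalisation.

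For blood and endothelium, 1 of 4 members was lower and none higher. That member was miR-150-5p, of mature lymphocytes, at 824.3 and 59.45 CPM (-3.79 [-3.97 to -3.62]). miR-223-3p, miR-142a-3p, miR-144-3p and miR-451a, which define blood cells, had no read in both libraries, and 12 of the 21 entries had none. The list summed to 160.1 CPM with RA and to 942.7 to 4396 CPM without. For endoderm, miR-375-3p, of pancreatic islets, was higher (70.68 and 249.5 CPM, 1.81 [1.49 to 2.17]), and 2 other members were not called. miR-122-5p, which defines hepatocytes, had 0 and 8 reads. The endoderm list summed to 361.5 CPM with RA and 177.9 to 251.8 CPM without. The part of other cell types in the RA response was not tested.

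The miR-200 and miR-183 lists had no called member. None of the 8 members of the miR-200 family, which keeps cells epithelial, was called (median 0.39), and miR-200b-3p stood at 4904 and 5421 CPM. The miR-183 cluster of sensory cells had none of 5 members called (median -0.44), and miR-182-5p stood at 43410 and 42920 CPM, a ratio of -0.016 [-0.030 to -0.002]. In all, 60 members had an interval wholly within -0.5 to 0.5. miR-205-5p, of stratified epithelia, was higher (1247 and 3923 CPM, ratio 1.65), as was miR-203-3p of skin (16.52 and 84.10 CPM, ratio 2.31); both were picked after their values were seen.

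The 4 members of the list of miR-34 and miR-449 were all arms of miR-34, which p53 activates, and 3 of them were higher (median 1.19). Of these, miR-34c-3p at 1.09 [0.33 to 2.08], lost its call with TMM over the 2 libraries (0.98), as CPM without the stem cell clusters (0.94) and with a prior of 5 (0.71). Of the higher ones, miR-34b-3p and miR-34c-3p had 26 and 13 reads untreated and passed the minimum through WT with RA alone. miR-34c-5p stood at 486.5 and 1669 CPM and miR-34a-5p at 481.9 and 687.0 CPM (0.51, not called). The miR-30 family had 2 of 11 members higher (1 to 5 under other scalings), a smaller share than the 24.3% of all members. All 11 of its ratios were positive (median 0.69). The family of miR-130 and miR-301 had 2 of 6 higher (1 under 3 other scalings, with miR-301a-3p at a ratio of 1.70). That of miR-148 and miR-152 had 1 of 5 (miR-152-5p, ratio 2.68). Both counts stand beside the 24.3% of all members. The called miR-301b-5p and miR-152-5p had 8 and 6 reads untreated and passed the minimum through WT with RA alone. The miR-26 family had none of 3 called, although miR-26a-5p at 9309 and 18250 CPM was near the limit (0.971 [0.942 to 1.001], or 1.07 and called as CPM of the total). The Clcn5 cluster had none of 5 called (median -0.03). Its member miR-532-5p stood at 767.4 and 753.9 CPM. The miR-29 family had 1 member, miR-29a-3p, which was lower (87.20 and 25.69 CPM, ratio -1.77).

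Among miRNAs reported to target pluripotency factors, 1 of 5 was higher (miR-134-3p, ratio 1.89) and 1 lower (miR-470-5p). These counts are near the 24.3% higher and 19.5% lower of all members. miR-134-3p had 10 reads untreated and passed the minimum through WT with RA alone. miR-134-5p, the arm known for that role, had 1862 and 2688 CPM and was not called (0.53 [0.46 to 0.60]), and miR-296-5p stood at 552.6 and 575.4 CPM. Of 4 members made without the usual processing steps, 1 was lower, beside 19.5% of all members. It was the mirtron arm miR-877-3p (-1.99), and miR-320-3p had a ratio of -0.76. The 2 entries reported to overlap ribosomal or transfer RNA, listed as a sign of RNA quality, were not called (miR-6240 at -0.32 and miR-1983 at 0.29).

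Outside all 30 lists stood 115 members, of which 23 were higher and 15 lower, smaller shares than the 24.3% and 19.5% of all members. miR-483-5p (chr7:142654968-142654989, in an intron of the imprinted growth factor gene Igf2) had 6 and 688 reads, a ratio of 4.11 [3.09 to 5.67], and its 3p arm one of 3.78. miR-489-3p, in an intron of Calcr, had 1 and 348 reads and a ratio of 5.24 [3.34 to 11.13]. miR-335-3p, in an intron of the imprinted gene Mest, went from 223.1 to 1393 CPM (2.64 [2.46 to 2.83]), and its level in the Wt1 KO libraries without RA was 4.961 to 14.14 CPM. At the other end, miR-6539 went from 766.5 to 34.95 CPM (-4.45 [-4.67 to -4.24]), miR-672-5p from 1337 to 193.6 CPM (-2.79), and miR-5099, with 6447 and 1335 CPM, had a ratio of -2.27. miR-3099-3p had 7 and 505 reads, a ratio of 3.455 [2.500 to 4.875]. Of these, miR-3099-3p, miR-335-3p, miR-672-5p and miR-5099, were picked once their values had been seen.

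Both arms of a hairpin come from 1 precursor, and 105 hairpins had both arms among the members. In some of them 1 arm is also made by another hairpin, so the difference is not within 1 precursor. Among these are miR-125b-1, miR-125b-2, miR-92a-1, miR-24-2, miR-128-1, miR-181a-1, miR-218-1, miR-30c-1 and miR-30c-2. The arms had the same call in 79 hairpins and opposite calls in none. The median difference between the arms' ratios was 0.52 in size, and 81 hairpins differed by under 1. In 4 hairpins the difference was at least 2 with an interval that left out 0. The difference of miR-10a, 2.18, had an interval that included 0, and its 3p arm had no read in untreated WT. miR-324 had 41 reads of the 5p arm and 68 of the 3p arm untreated, and 1071 and 298 with RA, so the 5p share went from 37.6% to 78.2% (difference 2.57 [1.98 to 3.15]). miR-329 shifted the other way, from 68.7% to 30.8% of reads on the 5p arm (difference -2.29 [-2.67 to -1.92]). miR-18b had arm ratios of -1.83 and -3.92, a difference of 2.08 [1.37 to 2.79]. The difference of miR-125b-2 (-3.53) sets miR-125b-5p, which also comes from miR-125b-1, against 2 and 1734 reads of miR-125b-2-3p, so it is not a difference within 1 hairpin. The arm with more reads changed in 10 hairpins, a count that includes near ties such as miR-292a and miR-700 (51.8% and 47.5% on the 5p arm).

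**Figure D4:**
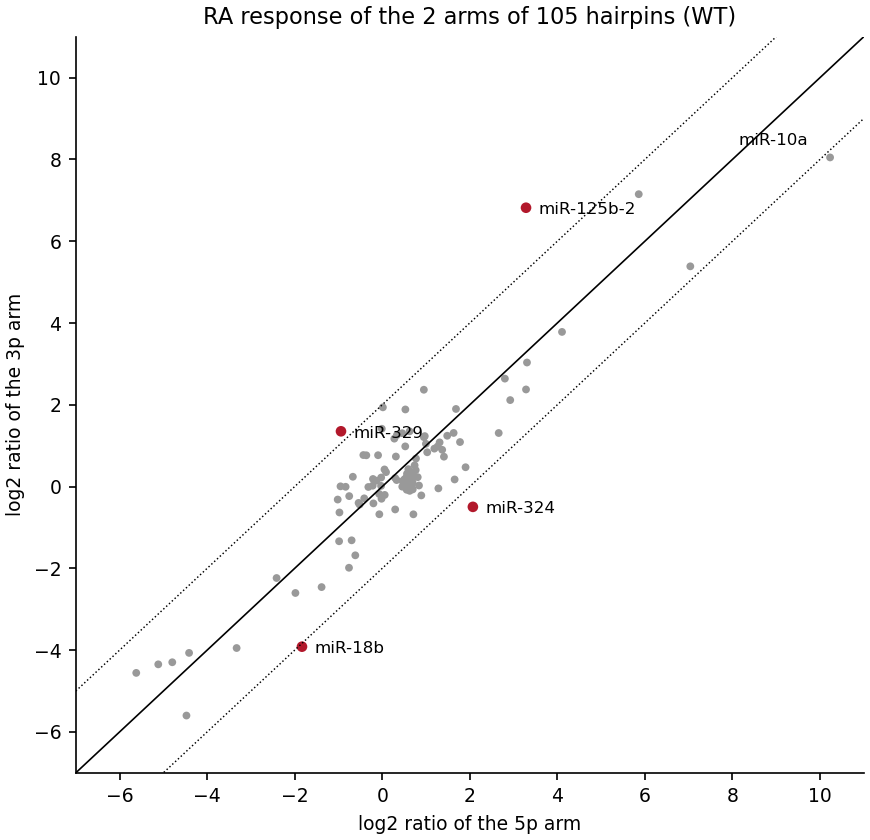
Log2 ratio of the 5p arm (horizontal) and of the 3p arm (vertical) of 105 hairpins with both arms among the members, WT with RA over untreated WT; the solid line marks equal ratios, the dotted lines a difference of 2, and red points the 4 hairpins past it whose interval leaves out 0; miR-10a lies past it with an interval that includes 0. Most points follow the line, with miR-324 and miR-329 off it on opposite sides.

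Neighbouring miRNA genes, whose hairpins can be cut from 1 transcript, were grouped where they lay within 10 kb of each other on the same strand. The 28 groups held 161 of the 296 members that could be placed. In 4 groups every member was higher, in 3 every member was lower, in 11 none was called, and 1 group (miR-770 to miR-136, with miR-665-3p) had both directions. The groups with every member higher had 2 members each, and let-7c-5p is counted both beside let-7b and beside miR-99a. Of the groups with every member lower, miR-290a to miR-295 had 9 members, and miR-302b to miR-302d and miR-871 to miR-470 had 2 each. The GC content of the mature sequences had a median of 47.8% among higher, 45.5% among lower and 52.2% among members not called, and the median length was 22 bases in each class.

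How far libraries without RA lie apart was read from untreated WT and the 3 Wt1 KO libraries without RA. They differ in genotype and dox, so this range is no replicate error. WT with RA lay above the range of these 4 libraries for 166 members, below it for 102 and inside it for 111. Of the 92 higher members 87 lay above the range, and of the 74 lower members 68 lay below it. The 5 exceptions among higher members were miR-379-5p, miR-708-3p, miR-539-5p, miR-143-3p and miR-30b-3p, and the 6 among lower members were miR-24-2-5p, miR-690, miR-28a-3p, miR-21a-5p, miR-21a-3p and miR-224-5p. The range itself had a median of 0.98 on the log2 scale. By the same size rule 101 of the 379 members differed between untreated Wt1 KO and untreated WT, and 20 between 24 h and 12 h of dox.

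**Figure D5:**
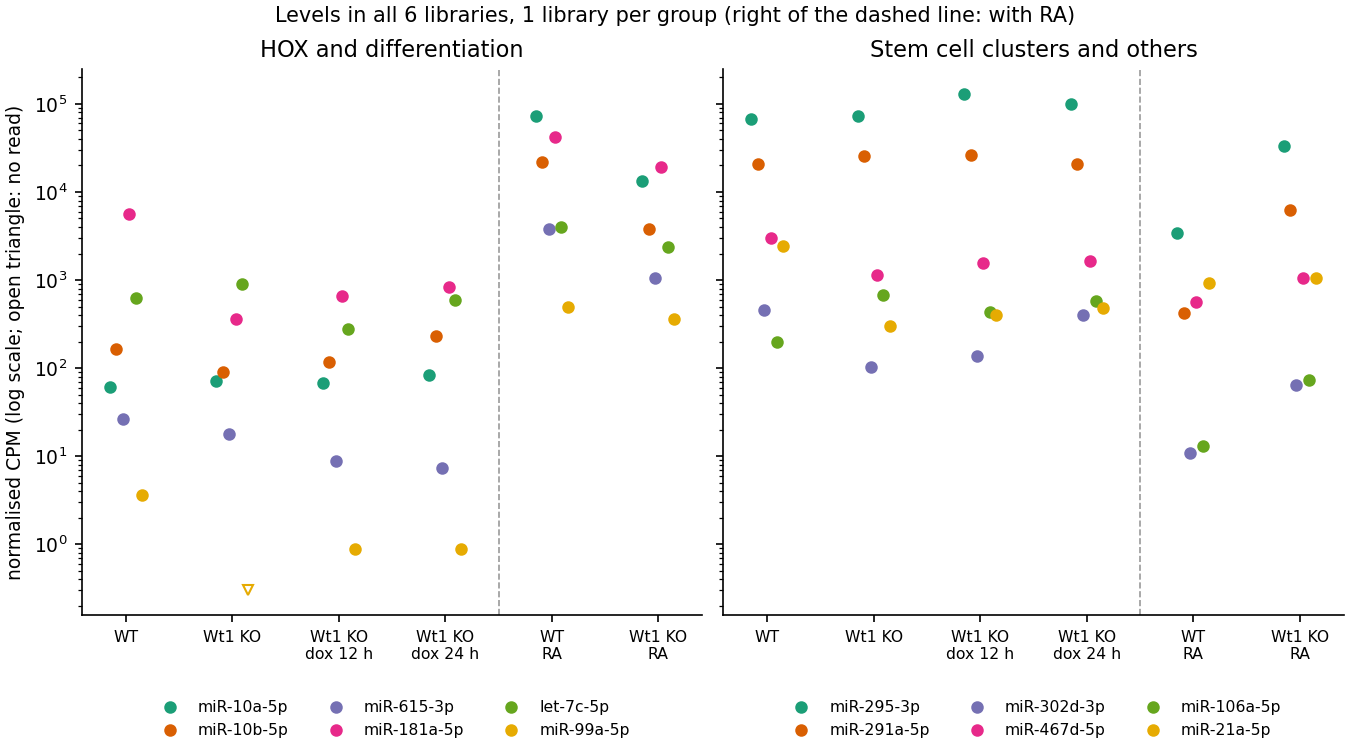
Normalised CPM (log scale) of 12 miRNAs in each of the 6 libraries, 1 point per library, with libraries given RA to the right of the dashed line and an open triangle where no read was counted. miR-10a-5p lies between 60.58 and 82.60 CPM in the 4 libraries without RA and at 73360 CPM in WT with RA, and miR-21a-5p is higher in untreated WT than in every other library.

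RA was also given to Wt1 KO cells, in libraries that share none with the wild-type comparison, and the library with RA there had 83626 reads, so most of its ratios are less precise. By the same rule 84 members were higher there (22.2%) and 76 lower (20.1%). Called higher in both genotypes were 47 members, which are 51.1% of the list in WT and 56.0% of that in Wt1 KO. Called lower in both were 41, which are 55.4% and 53.9%. miR-10a-5p had a ratio of 7.52 [7.24 to 7.83] in Wt1 KO beside 10.23 in WT, and miR-181a-5p 5.70 beside 2.92. miR-295-3p had -1.14 [-1.19 to -1.09] beside -4.30, miR-92a-3p -2.16 beside -1.68, and miR-106a-5p, from 960 and 8 reads, -3.11 [-4.42 to -2.21] beside -3.91. The median of the miR-290 list was -1.37 in Wt1 KO beside -4.44 in WT. Differences between the genotypes were not tested. No member was higher in WT and lower in Wt1 KO, and 5 were lower in WT and higher in Wt1 KO.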

How the data were processed

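Small RNA from 6 mouse embryonic stem cell groups was sequenced, 1 library each. The deposited tables hold whole-number counts per mature miRNA, per the file headers as unique matches and multi-matches. The sources used here give no aligner, mismatch limit, build or annotation. Unique counts were scaled by TMM (edgeR 4.0.16, R 4.3.3) over 6 libraries and the 351 entries whose mean count reached 50. Log2 ratios used a prior count of 0.5 and exact conditional binomial (Clopper-Pearson) 95% intervals, checked on simulated data. With 1 library per group no test was possible. Multi-matches came to 0.342% of the total in untreated WT and 0.135% with RA, and 10 members had over 10% of their matches there. Members, lists and alternatives were chosen with earlier results of these data known. Named miRNAs were the 12 higher and 12 lower with the interval bound farthest from 0, the 10 most abundant per library, the 4 most abundant per list, the 5 most abundant with an interval within -0.5 to 0.5, and arms and seeds with large differences or sums. Others are marked as chosen after their values were seen, apart from members given to complete a family, locus, range or exception. RefSeq mature sequences and positions were of GRCm38.p6, and host genes came from GENCODE. Alternatives were other scalings, minimum counts, priors and multi-matches.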

Additional observations from a re-analysis of the deposited data

Results flagged for a closer look

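In 4 of the named miRNAs the ratio was called lower with RA in WT and higher with RA in Wt1 KO. These were miR-21a-3p (-2.46 in WT and 2.12 in Wt1 KO), miR-21a-5p (-1.38 and 1.81), miR-470-5p (-2.73 and 1.65) and miR-871-3p (-2.23 and 1.22). miR-467a-5p of the Sfmbt2 intron cluster list, at -1.69 and 1.03, was the fifth such member and was named after its values were seen. Each value rests on 1 library per group, and the difference between the genotypes was not tested. The Wt1 KO library with RA had 14 reads of miR-21a-3p, 115 of miR-21a-5p, 96 of miR-470-5p and 87 of miR-871-3p. For miR-21a-5p, the level was 2406 CPM in untreated WT and 304.7 CPM in untreated Wt1 KO, and 921.3 and 1064 CPM with RA, so the untreated libraries lay farther apart than those with RA.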

How the results depend on the processing

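The 92 higher members became 84 to 104 under 4 other scalings, and the 74 lower became 72 to 82. The median of all members shifted by 0.10 as CPM of the total, by -0.08 with the median of ratios (DESeq2 1.42.0), by -0.10 with TMM over the 2 libraries, and by -0.14 as CPM without the stem cell clusters. At a minimum mean count of 10, 117 were higher and 115 lower, at 200 the counts were 68 and 39, and without a minimum 117 and 157, since more or fewer entries are then included. The higher share of all calls was 55.4%, and 50.4%, 63.6% and 42.7% in these 3 cases. Of the 127 named miRNAs, none of the 62 called ones reversed, and a change of sign was not recorded for those not called. Of the 62 called, 2 lost the call: miR-34c-3p (0.98 with TMM over the 2 libraries, 0.94 as CPM without the stem cell clusters, 0.71 with a prior of 5) and miR-143-3p (0.99 as CPM without those clusters). Some of the 62 were named for an interval bound far from 0, which favours a kept call. Over all 166 called members, 158 to 164 kept the call under the other scalings and 156 with a prior of 5. A call was gained by miR-26a-5p (1.07), miR-30b-5p (1.10) and miR-434-3p (1.03) as CPM of the total, by miR-31-5p (-1.03) as CPM without those clusters, and by miR-329-5p (-1.09 to -1.02) under 3 scalings; miR-30b-5p also gained it with a smaller prior (1.00). The median of the muscle and mesoderm list was -0.30 without a minimum. The HOX median was 7.275 with a smaller prior and 3.654 with a prior of 5, as 4 of its members had at most 1 read untreated. No paired analysis was possible because each group is 1 library.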
